A study of Homo sapiens with 6 samples.

Results

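MTUS1, PDE4B, PKIB, ADIRF, SEMA3C, CYP24A1, ABCC2 and TNNC1 are 8 genes whose RNA was much lower in HCT116 colon carcinoma cells over-expressing the transcription factor TEAD4 or its mutant K178R than in control cells. They are 8 of the 20026 gene rows kept from the deposited tables, and they were chosen by the size of their falls from control in these same libraries, in one or both lines. Their differences from control are therefore given as a description, with no test. All 8 passed the filter on low values, which asked for at least 0.5 FPKM in at least 2 libraries. FPKM counts fragments relative to a transcript's length and to the library's total.

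HCT116 is an established human colon carcinoma line. RNA was sequenced from 3 stable lines of it, with 2 libraries each: a line whose genotype is given as control, a line with wild type TEAD4 and a line with TEAD4 K178R, in the usual notation a lysine replaced by an arginine. The sources leave some points unstated, namely what the control line carries, the promoter that drives TEAD4, and whether a line is 1 clone or a pool. Wild type replicate 2 has TEAD5 in its genotype field and TEAD4 in its title, and was kept with the wild type libraries. The labels name no separate cultures behind a line's libraries, so the SDs and p-values cover only how far these libraries differ, possibly for technical reasons.

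TEAD4 belongs to the TEAD family of DNA-binding factors, which recruit the Hippo pathway coactivators YAP and TAZ to enhancers and promoters of growth genes. The 8 genes do not form one pathway. PDE4B and PKIB both limit cyclic AMP signalling, the former by breaking down cyclic AMP and the latter by blocking protein kinase A, the kinase that cyclic AMP switches on. MTUS1 encodes microtubule-associated proteins, SEMA3C a secreted guidance ligand, CYP24A1 the enzyme that inactivates vitamin D hormone, ABCC2 an efflux pump for conjugated drugs and bilirubin, ADIRF a small adipogenesis-related protein, and TNNC1 the calcium-binding troponin subunit of heart and slow muscle.

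Total FPKM lay between 283205 and 305342 per library, and the depth inferred from the lowest values lay between 0.925 and 1.05 times that of control replicate 1, but absolute read numbers are unknown. TEAD4 itself read 16.6 and 17.5 FPKM in the control libraries, 86.4 and 84.4 in the wild type libraries and 71.2 and 72.3 in the K178R libraries, so both lines held more TEAD4 RNA than control, with no overlap. Of 7 colon epithelial markers, 6 were tested and their sum ranged from 2634 to 2681 FPKM in control, 1796 to 1850 in wild type and 2851 to 2884 in K178R. VIL1, which marks the brush border, was below 0.5 FPKM in all libraries. The 6 fibroblast markers summed to at most 1.74 FPKM (control), 3.75 (wild type) or 1.87 (K178R), nearly all of it COL1A1, which rose in wild type (log2 0.82, limma adjusted p = 1.21e-04). COL1A2, DCN and LUM were at 0 in every library. The 4 endothelial markers summed to at most 0.131 FPKM, and the 5 leukocyte markers to between 2.63 and 5.16, carried by CD68 and CORO1A with CD3E at 0. CD68 fell in K178R (log2 -0.95, adjusted p = 1.86e-04), and CORO1A rose in wild type (log2 0.69, adjusted p = 0.00119) and in K178R (log2 0.35, adjusted p = 0.0408). Of the epithelial markers, KRT8 (log2 -0.75, adjusted p = 2.2e-06), KRT18 (log2 -0.60, adjusted p = 7.06e-06) and KRT19 (log2 -0.21, adjusted p = 0.00173) fell in wild type. CDX2 rose there (log2 0.26, adjusted p = 0.00717), and EPCAM and CDH1 were not called. In K178R, KRT8 (log2 0.09, adjusted p = 0.0289), KRT18 (log2 0.37, adjusted p = 1.05e-04) and CDH1 (log2 0.18, adjusted p = 0.0288) rose. KRT19 fell in K178R (log2 -0.23, adjusted p = 0.00299), and EPCAM and CDX2 were not called. The part of these markers in the results on the 8 genes was not tested.

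PDE4B, a cyclic AMP phosphodiesterase, spans chr1:65792514-66374579 on the plus strand (GRCh38, GENCODE release 29; the deposited tables give symbols and no positions). It read 13.3 and 13.6 FPKM in the control libraries, 4.62 and 4.53 in the wild type libraries and 2.39 and 2.44 in the K178R libraries. The 3 groups stood apart, with K178R lowest. Mean FPKM was 2.94-fold lower in wild type and 5.58-fold lower in K178R than in control (log2 -1.38 and -2.08 on the log2(FPKM + 1) scale, SE 0.04 for both). In bulk RNA such as this, less RNA per cell and fewer cells that express a gene cannot be told apart.

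PKIB, the beta isoform of the protein kinase A inhibitor family, spans chr6:122471917-122726373 on the plus strand. The same-strand transcript Z99129.3 shares exons with it and was not analysed here. It read 4.40 and 4.65 FPKM in control, 1.13 and 1.09 in wild type, and 0.778 and 0.675 in K178R. Both TEAD4 lines were far below control, and the K178R libraries were below the wild type ones by a smaller step. Mean FPKM was 4.06-fold lower in wild type and 6.23-fold lower in K178R (log2 -1.39 and -1.68, SE 0.06).

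The PKIB sequences are shown because this was the one gene with a motif match among the 5 searched. Its outermost start site also faces another gene. Start sites and bases are those of RefSeq on GRCh38.p14, 5′ to 3′ on the plus strand, with matches in capitals. The start site nearest the 3′ end of the gene had a pair of AP-1 motifs (TGANTCA) in the 250 bases before it, at 230 to 224 and at 61 to 55 bases before the start, in a stretch that overlaps no exon of GENCODE. The bases between PKIB and SERINC1, a gene read from the opposite strand, held no match. The tables give 1 value per gene, so which start site was used was not measured.
PKIB, before start site 3, chr6:122652479-122652728: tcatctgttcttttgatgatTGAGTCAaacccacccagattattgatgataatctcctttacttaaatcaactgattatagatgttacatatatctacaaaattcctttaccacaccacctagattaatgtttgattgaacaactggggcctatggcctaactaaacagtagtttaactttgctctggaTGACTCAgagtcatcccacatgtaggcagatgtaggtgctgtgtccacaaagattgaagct
Between SERINC1 and PKIB, chr6:122471823-122471916: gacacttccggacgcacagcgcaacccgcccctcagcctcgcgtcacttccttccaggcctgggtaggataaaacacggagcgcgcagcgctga

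From the promoter table, 13 start sites were taken for 5 of the 8 genes, PDE4B (6), PKIB (3), SEMA3C (2), ADIRF (1) and ABCC2 (1). CYP24A1 and TNNC1 were not matched. MTUS1 was not searched, because chromosome 8 was left out when the windows of the 8 genes were taken. The 250 bases before each of the 13 start sites were searched on both strands. The TEAD motif GGAATG was in 0 of the 13 windows and in 11.9% of the 34943 windows of the table. AP-1 (TGANTCA) was in 1 of the 13 and in 6.59% of all. The cyclic AMP response element (TGACGTCA) and the antioxidant response element (TGACNNNGC) were in 0 of the 13, and in 1.63% and 10.9% of all. The antioxidant response element can overlap AP-1 letters and did not here, and a missing match says only that those letters are not in this stretch.

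MTUS1, whose products bind microtubules, spans chr8:17643795-17800917 on the minus strand. It read 6.94 and 6.50 FPKM in control, 1.70 and 1.88 in wild type, and 0.711 and 0.728 in K178R. Mean FPKM was 3.75-fold lower in wild type and 9.34-fold lower in K178R (log2 -1.47 and -2.17, SE 0.06), which left 10.7% of the control level in K178R, the smallest share among the 8 genes. PDGFRL overlaps exons of MTUS1 on the opposite strand, and without knowing whether the counting used strand, reads of the pair cannot be told apart. PDGFRL rose in both lines, with 1.98 and 1.76 FPKM in control, 3.91 and 4.2003 in wild type, and 3.01 and 3.07 in K178R (log2 0.82, limma adjusted p = 9.14e-05, and log2 0.49, adjusted p = 0.00171). It was looked up after the values of MTUS1 were seen.

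SEMA3C, a class 3 semaphorin that signals through neuropilins and plexins, spans chr7:80742538-80922359 on the minus strand. It was the lowest of the 8 genes in control, with 3.64 and 3.13 FPKM. It read 0.639 and 0.785 FPKM in wild type and 0.454 and 0.486 in K178R. Mean FPKM was 4.76-fold lower in wild type and 7.21-fold lower in K178R (log2 -1.36 and -1.58, SE 0.08). The log2 values of the low genes depend on the pseudocount of 1, and with 0.1 in its place those of SEMA3C were -2.10 and -2.61.

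CYP24A1, the mitochondrial 24-hydroxylase of vitamin D, spans chr20:54153449-54173973 on the minus strand. It read 4.39 and 4.62 FPKM in control, 2.86 and 2.59 in wild type, and 0.878 and 0.972 in K178R. In FPKM the step from control to wild type and the step from wild type to K178R were of similar size. Mean FPKM was 1.65-fold lower in wild type and 4.87-fold lower in K178R (log2 -0.56 and -1.52, SE 0.06).

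ADIRF, a short protein linked to fat cell differentiation, spans chr10:86968192-86983934 on the plus strand. It was the most abundant of the 8 genes by FPKM, with 109 and 102 in control, above 96.2% of the tested genes. It read 65.9 and 66.8 FPKM in wild type and 33.7 and 35.7 in K178R. As for CYP24A1, K178R stood well below wild type, with 62.9% of the control mean left in wild type and 32.9% in K178R (log2 -0.66 and -1.58, SE 0.04). AGAP11, whose transcripts share exons with ADIRF on the same strand, was at most 0.386 FPKM in any library and was not tested. ADIRF-AS1, on the opposite strand, also shares exons with ADIRF and was not analysed here.

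ABCC2, an apical pump of the multidrug resistance-associated family, spans chr10:99782640-99852594 on the plus strand. Its control libraries read 17.58 and 17.61 FPKM. The wild type libraries read 4.83 and 5.22, and the K178R libraries 5.93 and 5.32. Mean FPKM was 3.50-fold lower in wild type and 3.13-fold lower in K178R (log2 -1.63 and -1.49, SE 0.06).

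TNNC1 spans chr3:52451102-52454070 on the minus strand. It read 3.94 and 4.81 FPKM in control, 0.767 and 1.07 in wild type, and 1.33 and 1.498 in K178R. Its control libraries differed from each other more than those of the other 7 genes did relative to their mean. Mean FPKM was 4.76-fold lower in wild type and 3.09-fold lower in K178R (log2 -1.49 and -1.15, SE 0.10).

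**Figure D1:**
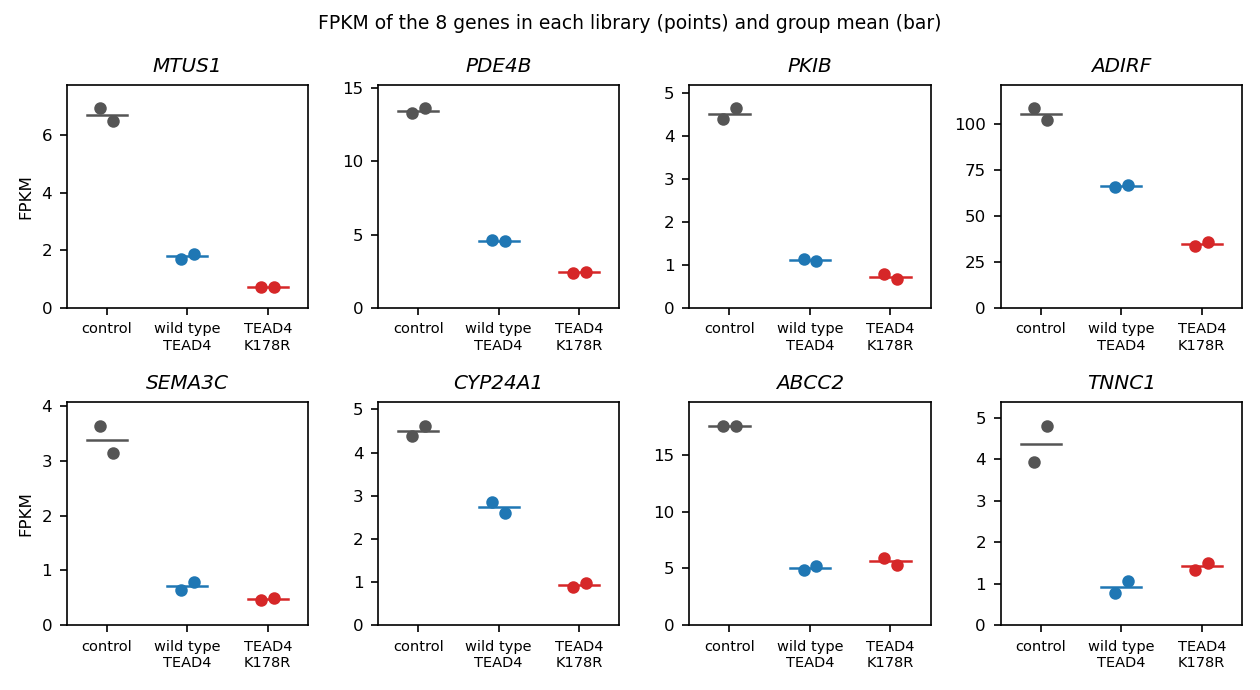
FPKM (linear axis from 0) of each of the 8 genes in the 2 libraries of each line, with points for libraries and bars for group means. For each gene the 4 TEAD4 libraries lie below both control libraries, and ABCC2 and TNNC1 are the genes with K178R above wild type.

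All 8 genes were lower in each of the 4 TEAD4 libraries than in both control libraries, as were 12.4% of all tested genes, and the choice of genes favours this. Across the 11445 genes tested, limma called 49.9% in either direction and 12.2% lower in wild type against control. In K178R against control it called 22.8% in either direction and 11.1% lower. A log2 fall of at least 1 was seen in 22 tested genes in wild type and in 27 in K178R, 16 of them in both. The 8 genes made up 6 of the 22, 8 of the 27 and 6 of the 16. CYP24A1 and ADIRF were the genes whose fall reached that size in K178R and not in wild type. In order of fall among all tested genes, the 8 held places 7 (ABCC2) to 89 (CYP24A1) in wild type and places 3 (MTUS1) to 20 (TNNC1) in K178R.

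The 2 TEAD4 lines were ordered differently among the 8 genes. Both lines entered the choice of genes, so these differences too are given without a test. Across all genes, 44.9% were called between the lines, 34.5% with lower and 10.4% with higher values in K178R. K178R lay below wild type with no overlap for 6 of the 8 genes and above it for 2, where 52.7% and 21.5% of all tested genes did so. By the ratio of mean FPKM the step was largest for CYP24A1, with 2.95 times as much RNA in wild type as in K178R (log2 of K178R minus wild type -0.95, SE 0.06), and for MTUS1, with 2.49 times as much (log2 -0.70, SE 0.06). ADIRF (log2 -0.92, SE 0.04) and PDE4B (log2 -0.71, SE 0.04) had 1.91 and 1.90 times as much in wild type. PKIB (log2 -0.29, SE 0.06) and SEMA3C (log2 -0.22, SE 0.08) differed less. For SEMA3C the gap between the nearest libraries of the 2 lines, 0.153 FPKM, was close to the 0.146 FPKM by which the wild type libraries differed from each other.

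ABCC2 and TNNC1 stood higher in K178R than in wild type, but the gap between the nearest libraries was smaller than the larger difference within a pair. For ABCC2 the nearest libraries of the 2 lines were 0.0975 FPKM apart, while the K178R libraries differed by 0.608 (log2 0.14, SE 0.06). For TNNC1 the gap was 0.262 FPKM and the wild type libraries differed by 0.304 (log2 0.34, SE 0.10). TEAD4 RNA itself was lower in the mutant line (log2 -0.25, limma adjusted p = 0.00131), and the part of that difference in the values above was not tested.

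**Figure D2:**
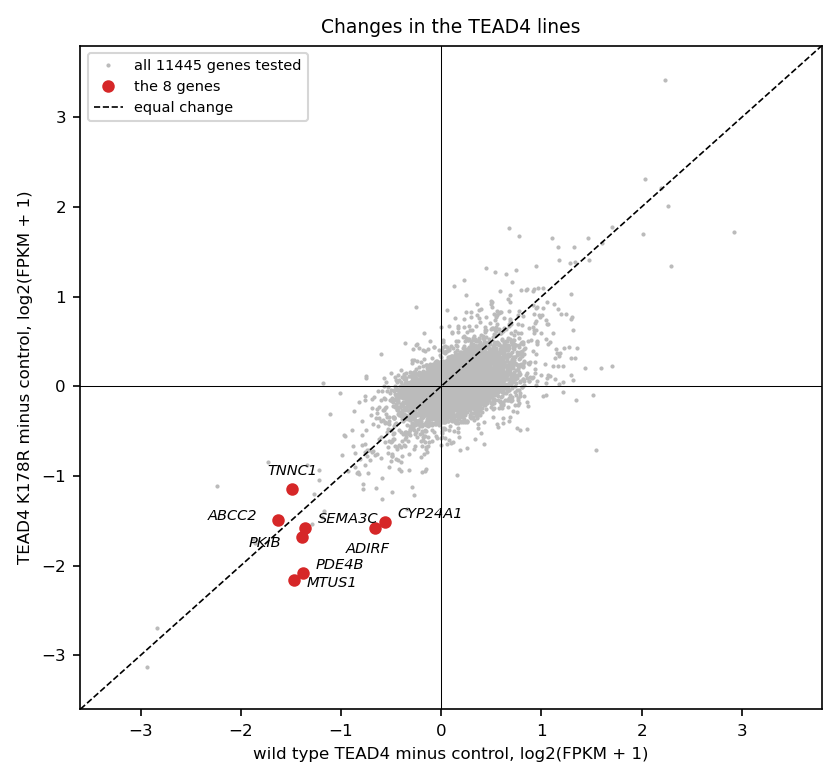
Change from control on the log2(FPKM + 1) scale in the wild type line (x axis) and the K178R line (y axis) for all 11445 tested genes (grey) and the 8 genes (red), with a dashed line of equal change. Of the 8, ADIRF and CYP24A1 lie farthest below the dashed line, and ABCC2 and TNNC1 lie above it.

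The genes that work with these 8 were examined in 7 lists of 165 genes, of which 97 were tested and none is one of the 8. In wild type, 42 of the 97 rose and 14 fell, or 43.3% and 14.4%, where 37.6% of all tested genes rose and 12.2% fell. In K178R, 14 rose and 18 fell, or 14.4% and 18.6%, beside 11.7% and 11.1% of all genes. The counts of each list below are to be read beside these shares of all genes. The median log2 change of the 97 was 0.11 in wild type and -0.01 in K178R, beside 0.09 and 0.00 over all genes. The count of rises in wild type was 27 without control replicate 2. In K178R it was 7 without control replicate 1, 8 without control replicate 2, and 7 without either K178R replicate. In wild type, median-of-ratios scaling gave 29 rises and 19 falls, and upper-quartile scaling 26 and 20.

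Around PDE4B and PKIB, the cyclic AMP and protein kinase A list held 29 tested genes of 40. In wild type 14 rose and 2 fell (48.3% and 6.9%, beside 37.6% and 12.2% of all tested genes). In K178R 6 rose and 3 fell (20.7% and 10.3%, beside 11.7% and 11.1%). The related phosphodiesterase PDE4A rose in wild type, from 7.31 ± 0.154 to 11.3 ± 0.103 FPKM (mean ± SD, n = 2; log2 0.56, SE 0.04, limma adjusted p = 6.98e-05), and to 8.26 ± 0.00994 in K178R (log2 0.16, adjusted p = 0.0287). The K178R call of PDE4A ended when control replicate 1 or 2 or K178R replicate 1 or 2 was left out (adjusted p = 0.0726 to 0.133). PDE4C and PDE4D were at most 0.280 and 0.164 FPKM in any library and were not tested, so PDE4B and PDE4A carried nearly all RNA of this subfamily. The other inhibitor genes of protein kinase A went the other way from PKIB in wild type. PKIG rose from 3.59 ± 0.0863 to 4.55 ± 0.0528 FPKM (log2 0.28, adjusted p = 0.00297) and stood at 3.31 ± 0.0228 in K178R (log2 -0.09, adjusted p = 0.221). PKIA was at 0.516 FPKM in the control line, 0.845 in wild type (log2 0.28, adjusted p = 0.0249) and 0.536 in K178R. The call of PKIA ended without control replicate 1 (adjusted p = 0.0748), control replicate 2 (0.106) or wild type replicate 1 (0.11).

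Adenylyl cyclases, which make cyclic AMP, included the gene with the largest rise of that list in wild type. ADCY6 rose from 2.17 ± 0.0730 to 3.90 ± 0.0927 FPKM (log2 0.63, adjusted p = 1.41e-04) and was at 2.33 ± 0.0328 in K178R (log2 0.07, adjusted p = 0.40). ADCY9 rose from 1.83 ± 0.0297 to 2.99 ± 0.0799 (log2 0.50, adjusted p = 5.6e-04) and was at 2.21 ± 0.156 in K178R (log2 0.18, adjusted p = 0.0646). Between the lines, both had less RNA in K178R (log2 -0.56, adjusted p = 3.37e-04, and log2 -0.31, adjusted p = 0.00485). The subunits of the kinase, named here after their values were seen, split. In wild type the catalytic subunit PRKACA rose (log2 0.37) and PRKACB fell (log2 -0.36), and the regulatory subunit PRKAR2B rose in both lines (log2 0.44 and 0.45). Upper-quartile scaling gave 9 rises and 3 falls in wild type. The falls called in this list came to 1 in wild type without control replicate 1 or wild type replicate 2. In K178R they came to 1 without control replicate 1, control replicate 2 or K178R replicate 1, and to 0 without K178R replicate 2.

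Around CYP24A1, 6 of 17 genes of vitamin D handling were tested. The vitamin D receptor gene VDR, whose product drives CYP24A1 in the textbook account, rose in wild type from 4.87 ± 0.405 to 6.36 ± 0.475 FPKM (log2 0.33, adjusted p = 0.00598) and was at 4.82 ± 0.119 in K178R (log2 -0.01, adjusted p = 0.934). Its partner RXRA fell in K178R from 10.97 ± 0.284 to 8.95 ± 0.00240 FPKM (log2 -0.27, adjusted p = 0.00315). In wild type RXRA was at 11.9 ± 0.0951 (log2 0.11, adjusted p = 0.045), a call that ended when any 1 library was left out (adjusted p = 0.0639 to 0.192) and after either scaling. CYP27B1, which makes the active hormone, rose in wild type from 2.61 ± 0.239 to 3.96 ± 0.349 FPKM (log2 0.46, adjusted p = 0.00319). In K178R it was at 3.39 ± 0.336 (log2 0.28, adjusted p = 0.0465), and that call ended without control replicate 1 or 2 or K178R replicate 1 or 2. In all, 4 of the 6 rose and 1 fell in wild type, with 2 rises left without control replicate 1, control replicate 2 or wild type replicate 2, and 2 rises beside 1 fall after either scaling. In K178R 1 rose, CYP27B1, and 2 fell, with 0 rises after upper-quartile scaling. The vitamin D target genes TRPV5, S100G and CAMP were listed at 0 in every library, and TRPV6 was not tested.

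Around ABCC2, 19 of 27 efflux transporters and regulators were tested. In wild type 6 rose and 4 fell (31.6% and 21.1%, beside 37.6% and 12.2% of all tested genes). In K178R 4 rose and 4 fell (21.1% each, beside 11.7% and 11.1%). The balance in wild type turned after either scaling, to 3 rises and 5 falls. ABCC3, a related pump of the opposite cell face, fell in both lines, from 0.743 ± 0.0233 FPKM to 0.334 ± 0.0538 in wild type (log2 -0.39, adjusted p = 0.0031) and 0.139 ± 0.0371 in K178R (log2 -0.61, adjusted p = 0.00102). ABCC3 passed the filter on low values only through its control libraries, which favours a fall. It was not tested under the alternative filter of 1 FPKM. ABCC1 was at 14.6 ± 0.0734 FPKM in the control line, 13.4 ± 0.579 in wild type (log2 -0.11, adjusted p = 0.0477) and 14.4 ± 0.00672 in K178R (log2 -0.01, adjusted p = 0.848). The wild type call of ABCC1 ended without any 1 library other than wild type replicate 1 (adjusted p = 0.0692 to 0.231). Among the regulators known for ABCC2, NR1I2 and NR1I3 (the latter outside the naming rule) were listed at 0 in all control and K178R libraries, and HNF4A was not called (1.53 FPKM in control, 1.44 with wild type TEAD4 and 1.22 with K178R, adjusted p = 0.487 and 0.0621). After upper-quartile scaling HNF4A was called lower in K178R (log2 -0.20, adjusted p = 0.0497). Genes of the oxidant response split in K178R. The cystine transporter gene SLC7A11 rose from 5.31 ± 0.0239 to 7.85 ± 0.258 FPKM (log2 0.49, adjusted p = 0.00303), and the haem oxygenase gene HMOX1 fell from 13.9 ± 0.432 to 10.1 ± 0.484 (log2 -0.43, adjusted p = 0.00108). In wild type SLC7A11 was not called (log2 0.01, adjusted p = 0.886), and HMOX1 was at 12.6 ± 0.475 (log2 -0.14, adjusted p = 0.0497), a call that ended without either control or either wild type library (adjusted p = 0.0574 to 0.213). In wild type the rises came to 3 without control replicate 2, and the falls to 2 without control replicate 1, control replicate 2 or wild type replicate 2. In K178R the rises came to 1 without control replicate 1 or either K178R replicate, and to 2 without control replicate 2.

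Around SEMA3C, 18 of 30 semaphorin, neuropilin and plexin genes were tested. In wild type 10 rose and 2 fell (55.6% and 11.1%, beside 37.6% and 12.2% of all tested genes). In K178R 2 rose and 5 fell (11.1% and 27.8%, beside 11.7% and 11.1%). Median-of-ratios scaling gave 8 rises and 3 falls in wild type, and upper-quartile scaling 8 and 4. SEMA3A, of the same secreted class, moved against SEMA3C. It rose from 2.07 ± 0.0238 FPKM to 3.18 ± 0.117 in wild type (log2 0.45, SE 0.05, adjusted p = 4.57e-04) and to 6.64 ± 0.0882 in K178R (log2 1.31, SE 0.05, adjusted p = 5.02e-06), and the step between the lines was called too (log2 0.87, adjusted p = 5.59e-05). SEMA3B fell in K178R from 2.42 ± 0.0149 to 1.11 ± 0.0860 FPKM (log2 -0.70, adjusted p = 3.42e-04). In wild type SEMA3B was at 2.08 ± 0.115 (log2 -0.15, adjusted p = 0.0812), and it passed after median-of-ratios or upper-quartile scaling. The ligands SEMA3C and SEMA3A thus changed places, SEMA3C being the higher by FPKM in control and SEMA3A in both TEAD4 lines.

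The receptor genes of SEMA3C were unequal in level. NRP1 and NRP2 were at most 0.123 and 0.152 FPKM in any library and were not tested. PLXND1 was at 4.003 ± 0.0147 FPKM in the control line, 4.78 ± 0.0609 in wild type (log2 0.21, adjusted p = 0.0128) and 4.08 ± 0.215 in K178R (log2 0.02, adjusted p = 0.81). The wild type call of PLXND1 ended without control replicate 1 (adjusted p = 0.0517), control replicate 2 (0.058) or wild type replicate 1 (0.0584), and after either scaling. PLXNB1, a receptor for class 4 semaphorins, rose in both lines, from 2.22 ± 0.1198 FPKM to 3.62 ± 0.248 in wild type (log2 0.52, adjusted p = 6.82e-04) and 4.04 ± 0.234 in K178R (log2 0.65, adjusted p = 6.38e-04).

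Around MTUS1, 15 of 18 genes of microtubule plus ends were tested. In wild type 7 rose and 2 fell (46.7% and 13.3%, beside 37.6% and 12.2% of all tested genes). In K178R 1 rose and 2 fell (6.67% and 13.3%, beside 11.7% and 11.1%). After either scaling 3 rose and 3 fell in wild type. MTUS2, the paralog, was at most 0.0213 FPKM in any library. The angiotensin receptor gene AGTR2, whose product binds a form of MTUS1, was listed at 0 in all control and K178R libraries. MAPRE1, the end-binding protein EB1, was abundant and not called, with 80.6 ± 2.18 FPKM in the control line, 84.04 ± 2.64 in wild type and 78.2 ± 1.67 in K178R (adjusted p = 0.178 and 0.424). CLIP2 rose in wild type from 5.83 ± 0.239 to 8.66 ± 0.0396 FPKM (log2 0.50, adjusted p = 1.82e-04), and MAPRE3 from 1.77 ± 0.0954 to 2.76 ± 0.477 (log2 0.44, adjusted p = 0.00662). The mitotic kinesin gene KIF18B fell in wild type from 21.01 ± 0.306 to 16.7 ± 0.587 FPKM (log2 -0.32, adjusted p = 4.9e-04). None of these 3 was called in K178R (CLIP2 log2 0.05, MAPRE3 log2 0.19, KIF18B log2 -0.02). In wild type the rises came to 4 without control replicate 1 or wild type replicate 1 and 3 without control replicate 2, and the falls to 1 without any of the control or wild type libraries. In K178R both counts came to 0 without any 1 of the control or K178R libraries, and the falls to 1 without either wild type library.

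Around TNNC1, 4 of 20 troponin and striated muscle genes passed the filter. MYH6, MYH7 and MYL3, the heavy and light chains of heart muscle, were at 0 in every library. The troponin genes TNNT1 and TNNI3, the latter named after its values were seen, were expressed and not called. TNNT1 was at 17.6 ± 2.66 FPKM in the control line, 19.3 ± 1.86 in wild type and 15.9 ± 2.08 in K178R (adjusted p = 0.382 and 0.43). TNNI3 was at 7.91 ± 0.0792, 8.66 ± 0.740 and 7.77 ± 0.245 FPKM (adjusted p = 0.142 and 0.805). TNNC1 was thus below both of them in control and far below in the TEAD4 lines. The other calcium-binding subunit gene, TNNC2, was at most 0.138 FPKM and TNNI1 at most 0.00756. The ventricular light chain gene MYL2 fell in wild type from 0.834 ± 0.258 to 0.130 ± 0.00157 FPKM (log2 -0.69, adjusted p = 0.00114) and was at 0.538 ± 0.0116 in K178R (log2 -0.25, adjusted p = 0.115, and 0.0349 without control replicate 1). It was 1 of the 4 tested genes to fall in wild type. With 0 of 4 called higher in wild type and 0 of 4 called either way in K178R, at most 1 gene was called in any such count when 1 library was left out.

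Around ADIRF, 6 of 13 adipocyte genes were tested. PPARG, the master regulator of fat cell differentiation, fell in both lines, from 2.04 ± 0.0161 FPKM to 1.45 ± 0.0593 in wild type (log2 -0.31, adjusted p = 0.0036) and 1.08 ± 0.0258 in K178R (log2 -0.55, adjusted p = 7.65e-04). K178R also stood below wild type (log2 -0.24, adjusted p = 0.0136), the order seen for ADIRF. CEBPA rose in wild type from 4.26 ± 0.356 to 6.60 ± 1.06 FPKM (log2 0.53, adjusted p = 0.00322), and CEBPD fell there from 7.01 ± 0.286 to 4.92 ± 0.711 (log2 -0.44, adjusted p = 0.00374). Neither was called in K178R (log2 -0.05 and -0.15). In all, 1 rose and 2 fell in wild type, and 0 rose and 2 fell in K178R. The defining genes of mature fat cells, ADIPOQ and LEP, were at 0 in every library.

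**Figure D3:**
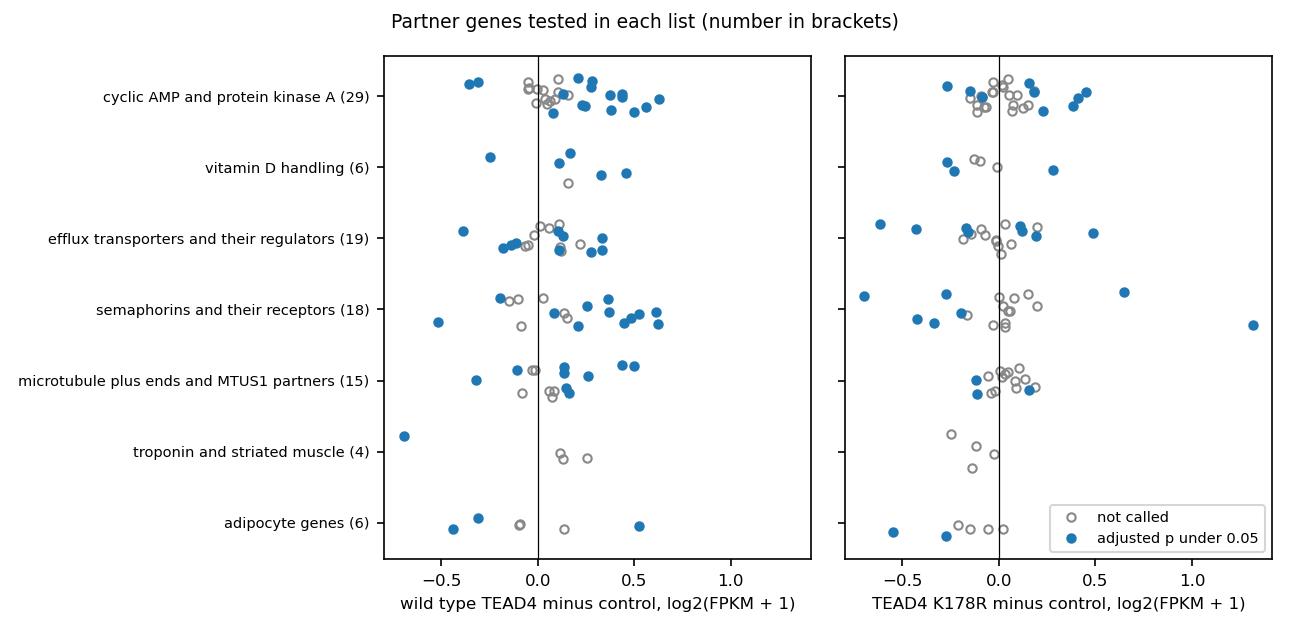
Change from control on the log2(FPKM + 1) scale for the tested genes of the 7 partner lists, in wild type (left) and K178R (right). Filled points passed the test and open points did not; the point farthest right in K178R is SEMA3A (log2 1.31) and the points farthest left are MYL2 in wild type (log2 -0.69) and SEMA3B in K178R (log2 -0.70).

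The nearest tested gene on each side that does not overlap the member gave 16 genes, a choice made after the values were seen. In wild type 7 of the 16 rose and 3 fell, and in K178R 3 rose and 3 fell, with a median log2 change of 0.07 and -0.01, beside 0.09 and 0.00 over all tested genes. Of all tested genes 37.6% rose and 12.2% fell in wild type, and 11.7% and 11.1% in K178R. The falls in wild type came to 1 without control replicate 1, control replicate 2 or wild type replicate 1, and to 5 after either scaling. In K178R they came to 1 without control replicate 1, control replicate 2 or K178R replicate 1. SERINC1, whose start lies 0.1 kb from that of PKIB, rose in wild type from 20.5 ± 0.364 to 23.8 ± 0.586 FPKM (log2 0.21, adjusted p = 0.00278) and was at 21.3 ± 0.469 in K178R (log2 0.05, adjusted p = 0.387). NISCH, 1.0 kb from TNNC1, was at 8.46 FPKM in the control line, 7.21 in wild type and 7.58 in K178R (log2 -0.20, adjusted p = 0.0152, and log2 -0.14, adjusted p = 0.0995). The call of NISCH ended without control replicate 2 (adjusted p = 0.0895) or wild type replicate 1 (0.0631). SEMA3G, 6.0 kb on the other side of TNNC1, was at 0.859, 1.22 and 0.659 FPKM. SNCG, 4.9 kb from ADIRF, rose in wild type (log2 0.50, adjusted p = 0.00419).

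SLC7A2, 73.2 kb from MTUS1, rose in both lines (log2 0.45, adjusted p = 2.9e-04, and log2 0.48, adjusted p = 4.89e-04). CUTC, 26.5 kb from ABCC2, fell in K178R from 33.4 ± 0.318 to 26.7 ± 2.03 FPKM (log2 -0.32, adjusted p = 0.00422). SMPDL3A, 62.7 kb from PKIB, was lower there too (log2 -0.31, adjusted p = 0.0125), a call that ended without control replicate 1 (adjusted p = 0.0757), control replicate 2 (0.0531) or K178R replicate 1 (0.0642). FAM25A near ADIRF had the most negative changes of the neighbours (log2 -0.49 and -0.75, adjusted p = 0.135 and 0.0693), with wide spread (2.75 ± 0.510, 1.72 ± 0.862 and 1.26 ± 0.643 FPKM). It passed in wild type without wild type replicate 1 (adjusted p = 0.0317), and in K178R without wild type replicate 1 (0.0349), wild type replicate 2 (0.0346) or K178R replicate 2 (0.0473). FAM25A has near-identical copies, so its values are uncertain. The neighbour of SEMA3C at higher coordinates is SEMA3A, at a distance of 3033.4 kb.

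**Figure D4:**
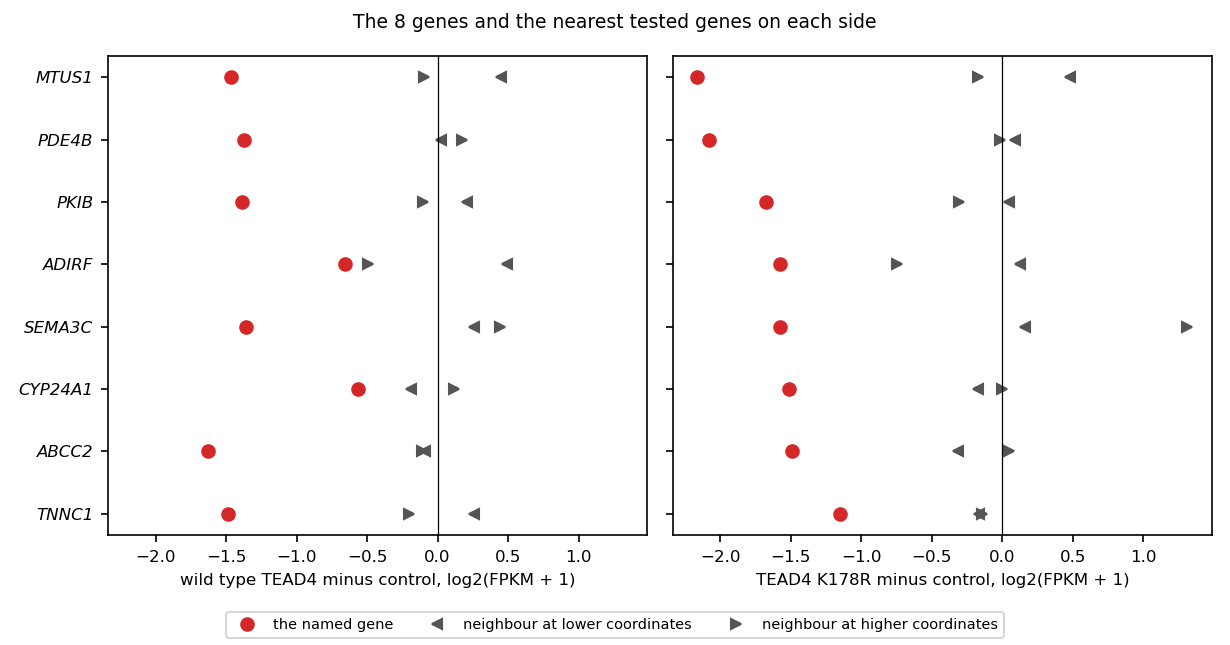
Change from control on the log2(FPKM + 1) scale for the 8 genes (red circles) and the nearest tested gene at lower and at higher coordinates (grey triangles), in wild type (left) and K178R (right). Each of the 8 genes lies to the left of both its neighbours in both lines, which the choice of the 8 by the size of their falls favours. The closest neighbour is FAM25A beside ADIRF in wild type (log2 -0.49 and -0.66).

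The genes most like each of the 8 were sought among the tested genes outside the 8. They were those with the smallest distance over the pair of log2 changes, wild type and K178R against control. These pairs share the control libraries, and the likeness is a description over 3 groups of 2 libraries. It holds on the log2(FPKM + 1) scale, which compresses low genes: RUNX2 was 6.93-fold lower in wild type and 20.4-fold lower in K178R by mean FPKM, more than any gene it is set beside. RUNX2, a transcription factor of bone formation, was the nearest to SEMA3C (distance 0.0788), PKIB (0.171) and PDE4B (0.550). It was at 2.23 FPKM in the control line, 0.322 in wild type and 0.109 in K178R. RUNX2 passed the filter on low values only through its control libraries, which favours a fall. ADGRF1, an adhesion G protein-coupled receptor, came second for SEMA3C (0.205) and PKIB (0.296). Outside control, ADGRF1 reached 0.5 FPKM in wild type replicate 2 alone. PLK2, a polo-like kinase gene, was nearest to CYP24A1 (0.258) and ADIRF (0.325), with 25.7, 16.7 and 10.1 FPKM, the same order of the 3 groups. CD99 came second for both (0.269 and 0.383), but its wild type libraries disagreed (2.08 ± 2.76 FPKM). It too reached 0.5 FPKM outside control in wild type replicate 2 alone. CAV1, the caveolar coat gene, was nearest to ABCC2 (0.334), followed by RUNX2 (0.343), in which the 2 TEAD4 lines stood in the opposite order. NECTIN3 (0.223) and PRF1 (0.286) were nearest to TNNC1. Outside the 8, MTUS1 had no close match, with KRT13 at 0.568 and CAV1 at 0.616, and the second for PDE4B was KRT13 at 0.584. Within the 8, some genes lay near each other in both changes. MTUS1 (log2 -1.47 and -2.17) was near PDE4B (log2 -1.38 and -2.08). PKIB (log2 -1.39 and -1.68) was near SEMA3C (log2 -1.36 and -1.58), and CYP24A1 (log2 -0.56 and -1.52) near ADIRF (log2 -0.66 and -1.58).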

How the data were processed

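For each library the authors deposited FPKM of 20030 gene rows. Bowtie 0.12.2 and the genome build hg18 are named, per the submitters' processing notes; the FPKM program, its annotation and strand setting were not given in the sources used here. Left out were the 4 rows with a repeated identifier. FPKM are not counts, so log2(FPKM + 1) of all 6 libraries was modelled by limma 3.58.1 (R 4.3.3, trended variance), with the 3 group means and no other covariate, over the 11445 genes that reached 0.5 FPKM in 2 or more libraries. Tests were two-sided with Benjamini-Hochberg adjustment over all genes tested and a threshold of 0.05, and the script was tested on simulated data. All log2 changes are on the log2(FPKM + 1) scale, which understates the change of low genes, and ± is SD with n = 2. The 8 genes and the partner lists were chosen with earlier results of these data known. Named partner genes are up to 3 with the largest called change in each list and 23 paralogs and direct partners fixed by name, not all of them reported here; others are genes listed at 0, genes with opposite calls, or marked. Alternatives were another pseudocount, 2 other filters, 2 scalings, each library left out, a replicate block and the control libraries averaged. Coordinates come from GENCODE release 29 and RefSeq on GRCh38, not from the files.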

Additional observations from a re-analysis of the deposited data

Results flagged for a closer look

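Among the partner genes, 5 were called in opposite directions in the 2 TEAD4 lines, and the difference between the lines was itself called. Both comparisons share the control libraries. SEMA6B, a transmembrane semaphorin gene, read 13.9 and 13.4 FPKM in control, 20.96 and 22.04 in wild type, and 11.78 and 11.75 in K178R (K178R against wild type log2 -0.82, limma adjusted p = 2.78e-05). NQO1, a quinone reductase gene, read 73.3 and 76.5 FPKM in control, 91.3 and 90.4 in wild type, and 66.8 and 65.9 in K178R (log2 -0.45, adjusted p = 8.68e-05). The other 3 were RXRA (log2 -0.38, adjusted p = 4.23e-04), the plexin gene PLXNB2 (log2 -0.36, adjusted p = 2.24e-04) and the kinesin gene KIF2C (log2 -0.25, adjusted p = 0.00103), whose changes from control in wild type were the smaller ones of the 5. All 3 calls held under 13 of 13 alternatives for NQO1, 9 of 13 for SEMA6B, and 3 of 13 for each of RXRA, PLXNB2 and KIF2C; the difference between the lines passed in all 13 for each of the 5.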

How the results depend on the processing

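Each of the 208 recomputed changes of the 8 genes from control, under 13 alternatives, stayed below 0, and none of their 312 recomputed values changed sign. The choice of the 8 genes by the size of their falls in these same libraries favours this. Of 1082 recomputed tests of the named genes, 983 kept their side of the threshold, 86 lost a call and 13 gained one. Among called changes 0 reversed. Changes that were not called could change sign, as for SLC7A11 in wild type (log2 between -0.09 and 0.12 over the alternatives). Counts of calls over all genes moved by more than 1.5 times as follows. In wild type, upper-quartile scaling gave 2765 higher and 2652 lower, and median-of-ratios scaling 2416 lower, beside 4309 and 1402; these scalings brought the median of all genes from 0.09 to 0.00 and 0.02. In K178R, beside 1342 higher and 1268 lower, leaving out 1 library gave 732 to 1266 higher and 635 to 1229 lower, and averaging the control libraries gave 658 and 577, with fewer samples. In K178R against wild type, beside 1187 higher and 3952 lower, median-of-ratios scaling gave 2171 and 2598, and upper-quartile scaling 2263 and 2520. Of the partner genes, rises in wild type came to 26 after upper-quartile scaling and to 27 to 37 with 1 library left out, beside 42. Rises in K178R came to 7 with the control libraries averaged and 7 to 14 with 1 library left out, beside 14, and falls to 11 with the control libraries averaged, beside 18. Same-numbered libraries shared only a number (correlations of their deviations over 9952 genes between -0.0308 and 0.032). With the replicate block the partner counts were 37 higher and 12 lower in wild type and 13 and 15 in K178R. Leaving out 1 library leaves its group with 1 sample, assumed to vary like the others. The number of reads is unknown, so no counting limit is given for low values.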
